A study of Mus musculus with 26 samples.

Results

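The 49 genes described here encode the machinery of mitosis and cell separation: the kinase CDK1 with its cyclins, the kinases of mitotic entry, the chromosomal passenger complex, the spindle checkpoint, the ubiquitin ligase pathway that frees the sister chromatids, the kinetochore, the spindle motors, and the central spindle with the cytokinetic ring. They were taken by symbol from a list of genes of G2 and mitosis. All 49 were found among the 56738 gene symbols of the deposited counts, and all 49 were among the 16893 genes tested, with no count under 33 in any library. Expression was measured by bulk RNA sequencing in primary keratinocytes from C57BL/6NJ mice aged 2 days. The donors were 5 wild-type (WT) mice and 8 *Pla2g4d*-deficient (KO) mice, the latter from a CRISPR-Cas9 line with a germline deletion of exon 3 of *Pla2g4d*. Both genotypes were grown for 4 days at 0.06 mM calcium, and each mouse gave an untreated (basal) library and a library after 24 h with IL17A and TNFα at 20 ng/ml each. The 26 libraries therefore form 4 groups, WT basal and WT with cytokines (n = 5 each) and KO basal and KO with cytokines (n = 8 each). Sex, litter and sequencing batch were not given in the labels, and the mice were not stated to be littermates.

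Mitosis is driven by CDK1 bound to B-type cyclins and ends when the anaphase-promoting complex (APC/C) destroys those cyclins together with securin. Most genes of this machinery are transcribed late in the cell cycle, in G2 and mitosis, so that their RNA in a culture depends on how many cells are dividing. In the epidermis, division takes place in the basal layer and stops when keratinocytes differentiate, and a low calcium concentration keeps cultured mouse keratinocytes in the basal, dividing state. In bulk RNA, more dividing cells and more RNA of these genes per dividing cell cannot be told apart.

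The promoters of such genes are known for a CHR element (TTTGAA) and for pairs of CCAAT boxes. Both motifs were searched on both strands from 250 bases before to 50 bases after the start of the canonical transcript (GRCm39, GENCODE), and matches of the different motifs can share at most 1 base. TTTGAA was found in 26 of the 49 windows (53.1%), against 13.7% of the 12952 promoters of the tested genes that could be placed. CCAAT was found in 31 windows (63.3% against 39.4%), at least 2 copies of it in 21 (42.9% against 13.7%), and both motifs together in 19 (38.8% against 5.71%). Pairs of CCAAT between 30 and 34 bases apart, a spacing chosen after the positions were seen, occurred in 9 windows (18.4% against 2.32%). The 100 bases before the start are printed for 6 genes, because each holds 2 boxes and together they cover 5 functions of the list. Within the printed stretches, the boxes of *Cdk1*, *Ccnb2*, *Aurkb* and *Spc25* have the spacing of 30 to 34 bases. The printed boxes of *Bub1* are closer together and those of *Hmmr* further apart. The *Hmmr* window is still among the 9, because a box before its printed stretch has that spacing to its first printed box. Capitals mark CCAAT, or ATTGG where the box is on the other strand, and TTTGAA. The stretches are chr10:69188769-69188868 (*Cdk1*, minus strand), chr9:70328875-70328974 (*Ccnb2*, minus), chr11:68936367-68936466 (*Aurkb*, plus), chr2:127673807-127673906 (*Bub1*, minus), chr2:69036559-69036658 (*Spc25*, minus) and chr11:40624281-40624380 (*Hmmr*, minus), each written 5′ to 3′ on the strand of its gene.
Cdk1: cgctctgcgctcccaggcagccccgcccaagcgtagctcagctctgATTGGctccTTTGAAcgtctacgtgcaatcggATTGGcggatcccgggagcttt
Ccnb2: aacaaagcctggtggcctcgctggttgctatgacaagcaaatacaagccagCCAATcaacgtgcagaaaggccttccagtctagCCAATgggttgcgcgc
Aurkb: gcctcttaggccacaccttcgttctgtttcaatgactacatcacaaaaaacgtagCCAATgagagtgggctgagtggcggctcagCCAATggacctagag
Bub1: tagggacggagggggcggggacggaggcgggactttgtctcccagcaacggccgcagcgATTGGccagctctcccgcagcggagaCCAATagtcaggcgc
Spc25: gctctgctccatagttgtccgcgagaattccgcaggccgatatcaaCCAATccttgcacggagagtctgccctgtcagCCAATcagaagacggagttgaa
Hmmr: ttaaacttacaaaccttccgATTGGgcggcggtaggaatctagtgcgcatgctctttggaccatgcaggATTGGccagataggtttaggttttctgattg

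The CHR letters stood at different distances from the start. Windows of 30 bases around TTTGAA are given for 5 genes whose levels are given further on, on the strand that carries the motif: *Ube2c* (chr2:164611810-164611839, minus strand), *Kif11* (chr19:37364801-37364830, minus), *Ect2* (chr3:27208126-27208155, minus), *Cdc20* (chr4:118294807-118294836, plus) and *Top2a* (chr11:98915019-98915048, plus). A match is a run of letters, and binding was not measured.
Ube2c: ggccgccgcccgcgTTTGAAttgcaaccct
Kif11: ttccgcgcctcaatTTTGAAaaatggagac
Ect2: agccgtttaccggaTTTGAAacacactcac
Cdc20: agcatctgggaatcTTTGAAaggtcacatc
Top2a: cttccctagtttcaTTTGAAcctttatcta

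Total counts per library lay between 42072745 and 78102858, and levels are given as CPM, which are counts scaled to library size, after TMM normalization. The basal keratinocyte markers *Krt5* and *Krt14* reached at least 16370 and 10859 CPM in every library. Summed markers of fibroblasts and endothelial cells stayed at or under 7.43 and 5.96 CPM, and those of melanocytes lay between 306 and 628 CPM. WT replicate 1 had the lowest melanocyte sum of its group in both conditions (429 and 333 CPM), and KO replicate 8 the highest of its groups (628 and 404 CPM). Summed immune markers had medians of 24.4 and 42.5 CPM in WT basal and treated cells and 28.5 and 30.6 CPM in KO, with the highest KO values in replicate 8 (37.2 and 54.6 CPM). Most of that sum came from *Cd68* and *Lyz2*, while *Ptprc*, the marker of all leukocytes, reached at most 0.116 CPM and *Cd207* was at 0 in every library. The part of melanocytes and immune cells in the results was not tested. *Pla2g4d* itself does not check the genotype, since gene counts include exons outside the deletion. Its level was the lowest of its group in WT replicate 1 and the highest of its group in KO replicate 8, in both conditions. For KO replicate 8 the margin was small under basal conditions. These same mice were at the edges of their groups for the mitotic genes. The mouse labelled WT replicate 1 had 1.22 CPM of *Pla2g4d* in its basal library. The other basal WT libraries had 3.14 to 4.63 CPM and those of KO 1.15 to 2.98 CPM. With cytokines it had 28.6 CPM, against 47.1 to 65.2 CPM in the other WT mice and 29.2 to 59.2 CPM in KO. The mouse labelled KO replicate 8 had 2.98 CPM and 59.2 CPM, the highest values of the KO libraries, where the other KO mice reached at most 2.94 and 42.2 CPM. Whether the labels of these mice are right cannot be tested from gene counts, and results are given with and without them.

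The summed level of the 49 genes was higher with cytokines in 13 of 13 mice. It was 838 ± 436 CPM (SD, n = 5) in WT basal cells and 1121 ± 548 CPM with cytokines, and 1144 ± 328 CPM (SD, n = 8) in KO basal cells and 1606 ± 219 CPM with cytokines. Per mouse, the sum with cytokines was 1.06 to 1.82 times the basal sum. In WT the basal sums were 1605, 602, 777, 640 and 568.2 CPM for replicates 1 to 5, and those with cytokines were 2097, 938, 821, 907 and 844 CPM in the same order. WT replicate 1 thus exceeded every KO library of its condition, while the other 4 WT mice averaged 647 ± 91.7 CPM basal and 878 ± 54.2 CPM with cytokines. KO sums ran from 635 (median 1168) to 1566 CPM basal and from 1154 (median 1670) to 1856 CPM with cytokines, and KO replicate 8 gave the lowest value of both groups.

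**Figure D1:**
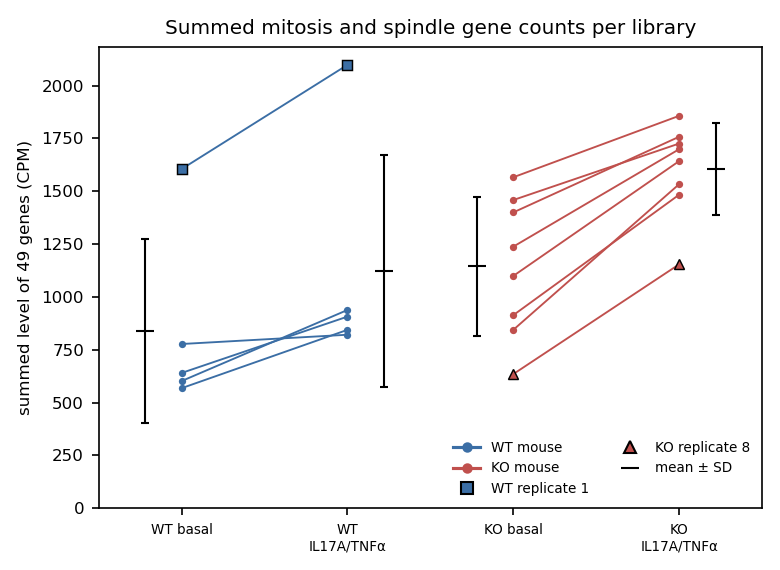
Summed level of the 49 mitosis and spindle genes (CPM, y axis) in each library of the 4 groups (x axis), with lines joining the libraries of 1 mouse and bars giving mean ± SD (n = 5 WT, n = 8 KO). The line of every mouse goes up from basal to cytokines, and WT replicate 1 (squares) lies above all KO libraries of its own condition while KO replicate 8 (triangles) is the lowest KO mouse.

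The genes moved together across the mice. As log2 deviations from the group means over the 26 libraries of 13 mice, pairs of the 49 genes correlated with a median r of 0.91, and 1154 of 1176 pairs were over 0.5. These points share library, mouse and normalization, so the correlation is a description. Without WT replicate 1 and KO replicate 8 the median r was 0.73 and 1050 pairs were over 0.5. Between the basal and treated libraries of the 13 mice, the deviations of the mean over the genes correlated with r of 0.90. That r was not computed without WT replicate 1 and KO replicate 8. Among the WT mice other than replicate 1 the order was not kept. Of these, replicate 3 had the highest summed level under basal conditions (777 CPM) and the lowest with cytokines (821 CPM). *Top2a*, the topoisomerase that untangles sister chromatids, followed the mean of the other members most closely (r = 0.99), and *Pttg1* (securin, r = 0.51) and *Bora* (r = 0.79) followed it least. WT replicate 1 was the highest WT library for 49 of 49 genes under basal conditions and for 48 with cytokines. KO replicate 8 was the lowest KO library for 44 and 47 genes. The shares of all genes tested for which these libraries were the highest or lowest were not counted.

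The summed differentiation markers ran the opposite way. They ran from 3965 to 7085 CPM in WT basal cells and from 1263 to 2343 CPM with cytokines, and in KO cells from 3117 to 6234 CPM and from 1156 to 2045 CPM. Single markers went against the sum, and *Cnfn* was higher with cytokines in both genotypes (2.29 in WT and 1.81 in KO on the log2 scale, edgeR adjusted p = 3.98e-09 and 2.37e-09). WT replicate 1 had the lowest sum of its group in both conditions, and KO replicate 8 the highest. Across the 26 libraries the mean deviation of the mitotic genes correlated with that of 13 differentiation markers at r = -0.86 and with that of 29 DNA replication genes at r = 0.98, or -0.73 and 0.91 without both mice. The part of differentiation in the results that follow was not tested.

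**Figure D2:**
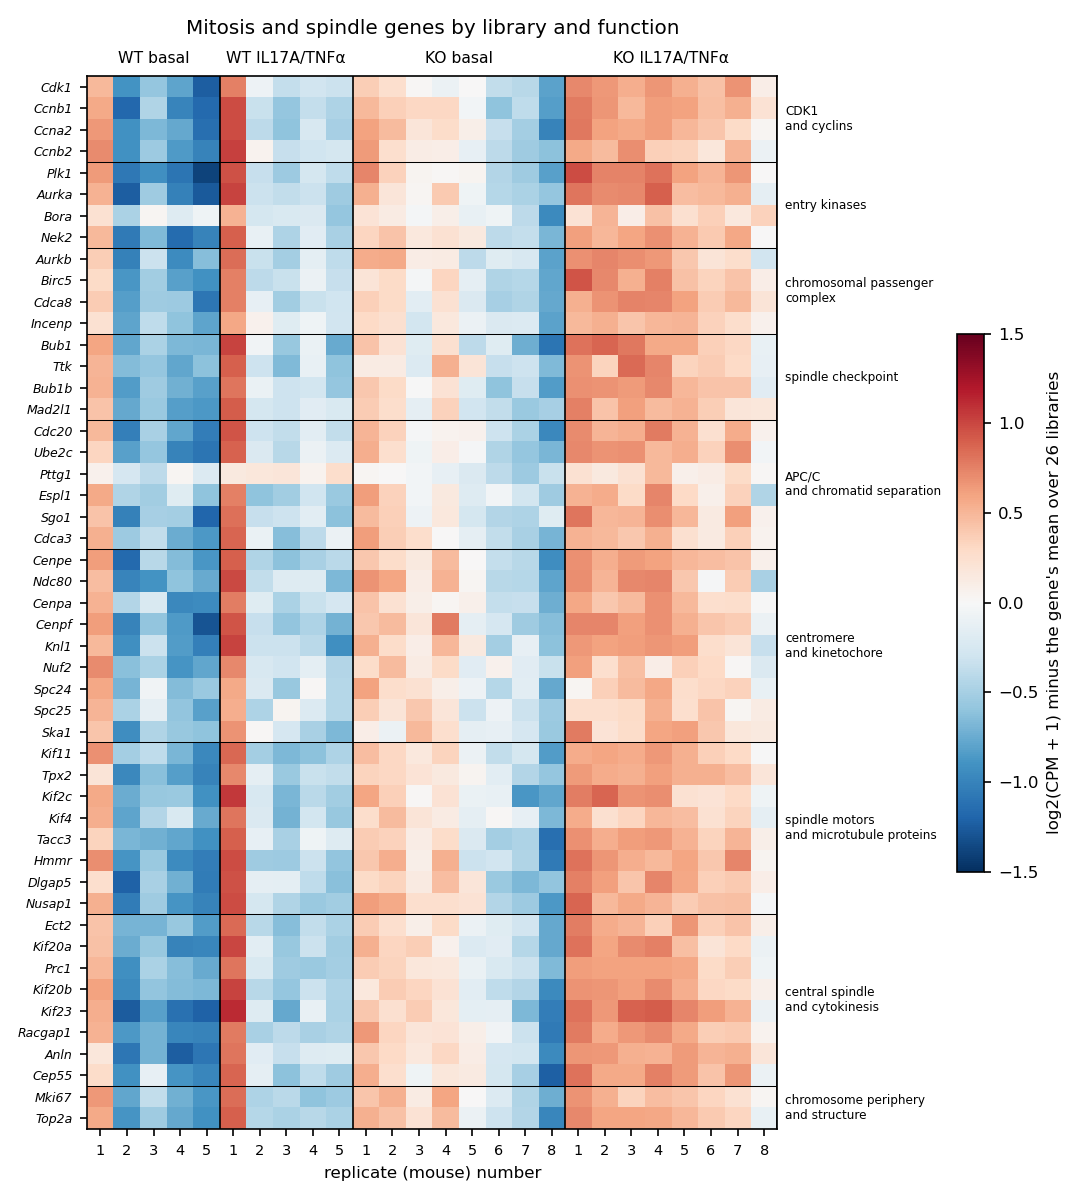
Level of each of the 49 genes (rows, grouped by function) in each of the 26 libraries (columns, by group and mouse number), as log2(CPM + 1) minus the mean of that gene over all libraries. Nearly every row has the same column pattern, with the first WT mouse red in both conditions and the eighth KO mouse the palest or bluest of its groups, while the rows of *Pttg1* and *Bora* are pale.

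With cytokines 7 of the 49 genes were called higher in WT and 26 in KO. Differences here are log2 fold changes from edgeR's quasi-likelihood test over 16893 genes, with Benjamini-Hochberg adjusted p, and a gene was called when the adjusted p was under 0.1. In WT cells 48 of 49 genes were higher with cytokines, with a median log2 fold change of 0.41 against 0.01 over all genes tested, and 7 were called, all higher. That share is not above the background, since 18.8% of all genes tested were called higher in WT. With a fold change over 1.5 as a second condition, 3 genes were called in WT (*Anln*, *Dlgap5* and *Ube2c*), against a background of 8.65%. In KO cells all 49 genes were higher, with a median of 0.50 against 0.00 over all genes, and 26 were called, against 17.7% of all genes called higher. With the fold condition 11 were called in KO, against 6.33%. No member was called lower with cytokines in either genotype.

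Each mouse gave both libraries, so the response was also tested within mice. With the mouse as a block in the model, 40 genes were called in WT and 48 in KO, or 8 and 17 with the fold condition, and the block without WT replicate 1 called 33 and 48. With the block 21.2% of all genes were called higher in WT and 20.1% in KO, and without WT replicate 1 it was 20% in both. Counted mouse by mouse, 24 of the 49 genes were higher with cytokines in 13 of 13 mice, as were 10.4% of all genes tested. In WT 30 genes were higher in 5 of 5 mice (21% of all genes) and in KO 36 were higher in 8 of 8 (12.6%). The median change within a mouse was 0.44 ± 0.23 in WT (SD, n = 5, range 0.06 to 0.68) and 0.55 ± 0.24 in KO (SD, n = 8, range 0.26 to 0.87). The lowest was WT replicate 3, in which 32 of 49 genes were higher. The unblocked counts depended on single mice. In WT they ran from 1 (without WT replicate 2, 16.6% of all genes called higher) to 19 (without WT replicate 1, 18.7%). In KO they ran from 13 (without KO replicate 7, 15.8%) to 42 (without WT replicate 1, 18.6%).

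Between genotypes most members were on the higher side in KO but few were called, and the WT mice overlapped the KO mice for every gene. Of all genes tested, 1.91% under basal conditions and 0.651% with cytokines had every KO library above every WT library. Under basal conditions 47 of 49 genes were on the higher side in KO, with a median log2 fold change of 0.42 against 0.00 over all genes, and 2 genes, *Tpx2* and *Anln*, were called, both also past the fold condition. The background was 7.57% of all genes called higher, and 1.61% with the fold condition, so that the members did not exceed it without the fold condition. With cytokines all 49 were on the higher side in KO, with a median of 0.53 against -0.01, and none was called by edgeR, with the fold condition or without it, where the background was 1.22% and 0.148%. At an unadjusted p under 0.05 there were 17 members, beside 2533 of the 16893 genes tested. DESeq2 called 0 members and limma on the deposited log2 values called 1, where 2.12% and 1.43% of all genes were called higher. No member was called lower in KO in either condition.

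These counts rested on 1 mouse. Without the mouse labelled WT replicate 1, 46 genes were called higher in KO under basal conditions (median 0.80, 10.4% of all genes called higher) and 48 with cytokines (median 0.92, 6.27% of all genes), and without both this mouse and KO replicate 8 the counts were 47 and 48. Since WT replicate 1 was singled out by values of these genes, the larger counts are a description of the other 12 mice. With each other mouse left out, 0 to 5 genes were called under basal conditions, and 0 to 2 with cytokines. In those fits 5.51% to 8.26% and 0.266% to 2.59% of all genes were called higher. Without WT replicate 1, every KO library exceeded every WT library for 4 genes under basal conditions (*Plk1*, *Sgo1*, *Nuf2* and *Tpx2*, named after their values were seen; 3.4% of all genes tested) and for 37 genes with cytokines (3.46% of all genes). With the mouse as a random block (limma-voom, correlation 0.143) and all mice kept, 3 genes were called under basal conditions (*Nek2*, *Tpx2* and *Anln*) and 4 with cytokines (*Birc5*, *Cdca8*, *Tpx2* and *Ect2*). In that fit 7.34% and 1.63% of all genes were called higher, so that the basal count did not exceed its background.

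**Figure D3:**
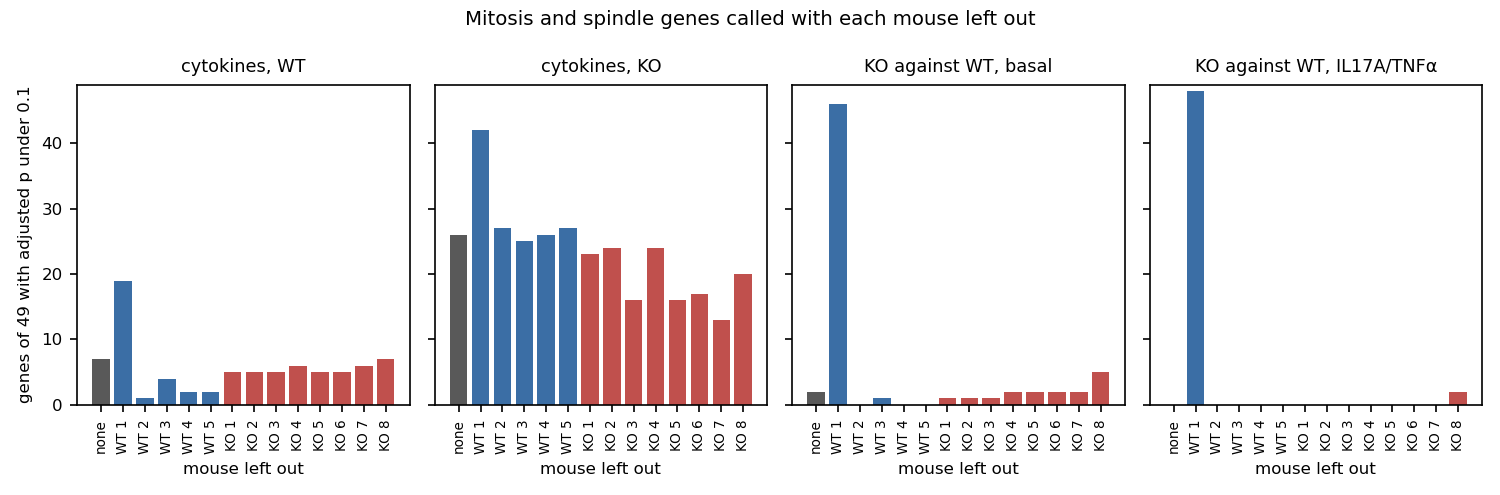
Number of the 49 genes with an adjusted p under 0.1 (y axis, edgeR) for the cytokine effect in WT and KO and for the genotype effect basal and with cytokines, with each mouse left out in turn (x axis, "none" keeps all 13). The bar without WT replicate 1 is the highest in all 4 panels, at 19, 42, 46 and 48 genes.

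No member was called for a difference in the cytokine response between the genotypes. The interaction (response in KO minus response in WT) had a median of 0.09 over the 49 genes against -0.01 over all genes, and 37 members were on the positive side. The count of called members was 0, with or without the fold condition, against a background of 0.201% and 0.0355% of genes called higher. Of the members 0 had an unadjusted p under 0.05 by edgeR, beside 1542 of the 16893 genes tested. DESeq2 and limma called 0, and so did the fit with the mouse as a block. The block had 6 members under an unadjusted 0.05, for which the share over all genes was not counted. Standard errors of the interaction ran from 0.15 to 0.45 on the log2 scale, beside median responses of 0.41 in WT and 0.50 in KO. The highest values were those of *Bora* (0.48, standard error 0.26, edgeR adjusted p = 0.593), *Bub1* (0.34) and *Kif11* (0.34), and the lowest those of *Ndc80* (-0.24), *Anln* (-0.23) and *Nuf2* (-0.13).

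**Figure D4:**
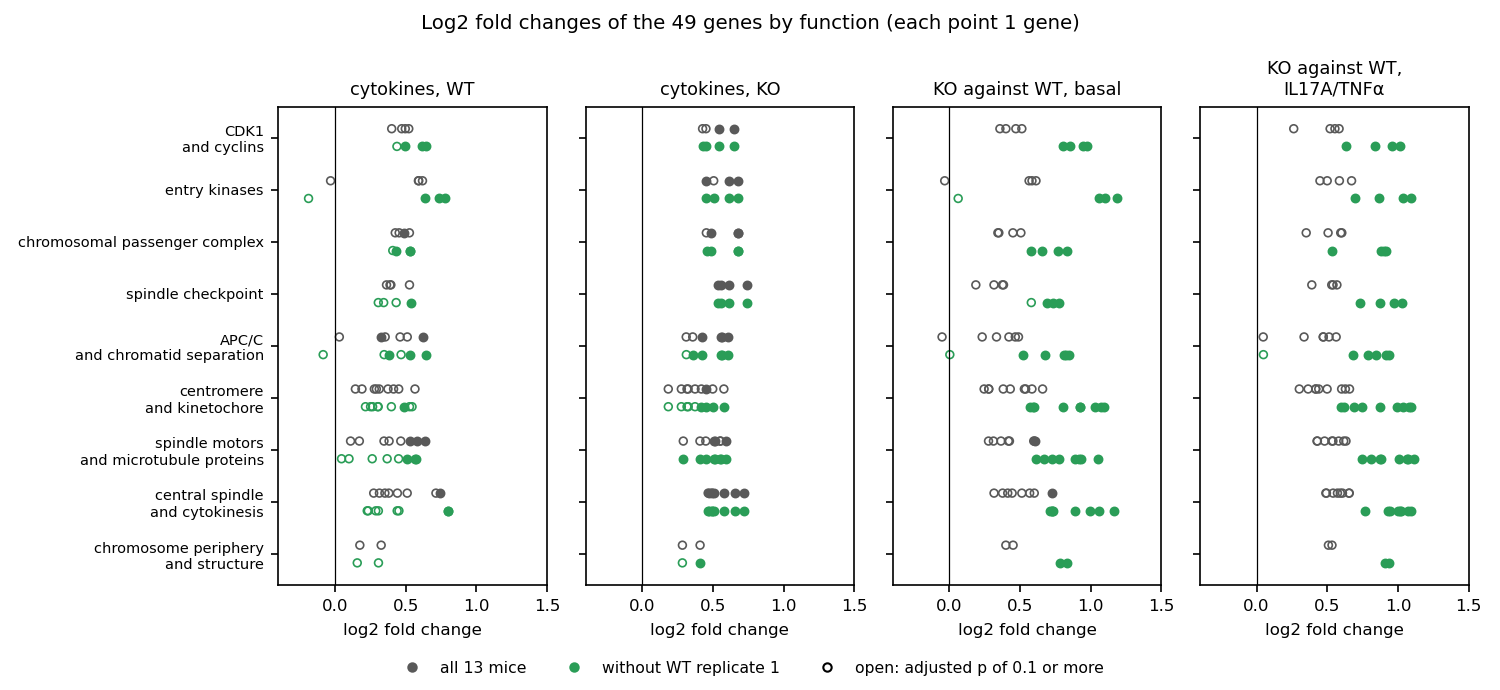
Log2 fold changes (x axis) of the 49 genes, each point 1 gene, by function (y axis) for the cytokine effect in WT and KO and the genotype effect basal and with cytokines, with all 13 mice (grey) and without WT replicate 1 (green), filled where the edgeR adjusted p was under 0.1. Nearly all points lie right of 0, and in both genotype panels the green points lie further right and are filled where the grey ones are open.

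Among the genes of CDK1 and its cyclins, 0 of 4 were called for the cytokine effect in WT and 2 of 4 in KO (*Cdk1* and *Ccnb1*), and 4 and 4 with the mouse as a block. *Cdk1*, the kinase that drives entry into mitosis, measured 43.6 CPM in WT replicate 1 and 16.1, 20.2, 17.4 and 12.5 CPM in replicates 2 to 5 under basal conditions. With cytokines the same mice gave 52.8, 29.1, 23.8, 25.2 and 24.3 CPM. KO values ran from 17.2 (median 29.9) to 40.2 CPM basal and from 33.1 (median 47.1) to 51.5 CPM with cytokines. All 13 mice had more *Cdk1* RNA with cytokines, and basal and treated groups overlapped in both genotypes. On the log2 scale *Cdk1* responded by 0.50 in WT (standard error 0.26, edgeR adjusted p = 0.148) and 0.65 in KO (standard error 0.20, adjusted p = 0.0135), and with the mouse as a block the adjusted p was 0.000323 and 1.37e-06. Between genotypes *Cdk1* was 0.40 higher in KO basal (edgeR adjusted p = 0.331) and 0.55 with cytokines (adjusted p = 0.245). Without WT replicate 1, which was singled out by values of these genes, the differences were 0.80 and 0.84, a description of the other mice.

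*Ccnb1*, the main B-type cyclin, averaged 24.4 ± 15.5 and 33.8 ± 19.3 CPM in WT basal and cytokine-treated cells and 34.8 ± 11.3 and 50.7 ± 5.76 CPM in KO cells. Its WT spread came from replicate 1, at 51.1 and 68.1 CPM, where the other 4 mice had 14.5 to 24.7 and 22.6 to 27.1 CPM. The response was 0.47 in WT (adjusted p = 0.271, edgeR) and 0.54 in KO (adjusted p = 0.0948). *Ccna2* and *Ccnb2*, an A-type and a B-type cyclin, had responses of 0.40 and 0.52 in WT and 0.45 and 0.43 in KO, with adjusted p from 0.189 to 0.376. With cytokines *Ccnb2* had the second lowest genotype difference of the 49 genes, 0.26.

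The kinases of mitotic entry had 0 of 4 calls for the cytokine effect in WT and 3 of 4 in KO, and 3 and 4 with the block. *Plk1*, a kinase of centrosomes and kinetochores, measured 32.5, 9.29, 10.4, 9.09 and 7.21 CPM in WT replicates 1 to 5 under basal conditions and 40.9, 16, 13.7, 17 and 15.5 CPM with cytokines. KO libraries ran from 11.2 (median 21.0) to 34.8 CPM basal and from 20.6 (median 34) to 41.5 CPM with cytokines. Apart from WT replicate 1, every KO library was above every WT library of its condition. The cytokine response was 0.59 in WT (standard error 0.34, edgeR adjusted p = 0.204) and 0.68 in KO (standard error 0.27, adjusted p = 0.0551). *Plk1* had the highest genotype difference with cytokines of the 49 genes, 0.67 (edgeR adjusted p = 0.297). The value was 1.09 without WT replicate 1, again only a description of the other mice.

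*Aurka*, the kinase of spindle poles, averaged 11.7 ± 7.94 CPM basal and 17.7 ± 10.4 CPM treated in WT mice (SD, n = 5), against 17.4 ± 5.25 and 26.6 ± 5.45 CPM in KO mice (SD, n = 8), responses of 0.59 (adjusted p = 0.177, edgeR) and 0.61 (adjusted p = 0.0678). Of its annotated exon bases 38.7% lie opposite exons of other genes (*Fam210b* and *Cstf1* among them). Whether the counting used the strand was not stated, so reads in the shared bases may have affected its level in either direction. *Nek2*, a kinase that separates centrosomes, had a response of 0.62 in WT and 0.51 in KO (adjusted p = 0.119 and 0.104), and with the block both were called.

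*Bora*, a partner through which Aurora A activates PLK1, stood apart from this group. In WT basal cells it measured 9.89, 5.65, 8.5, 7.13 and 7.89 CPM in replicates 1 to 5, and with cytokines 12.4, 6.71, 6.95, 6.98 and 5.2 CPM. It was thus higher with cytokines in 2 of 5 WT mice, but in 8 of 8 KO mice, whose values ran from 3.78 (median 7.97) to 9.69 CPM basal and from 8.95 (median 10.4) to 12.2 CPM with cytokines. The response was -0.03 in WT (standard error 0.20, edgeR adjusted p = 0.933), the lowest of the 49 genes, and 0.45 in KO (standard error 0.16, adjusted p = 0.0322). The difference between these responses was not called (interaction, adjusted p = 0.593, and 0.243 with the block). Under basal conditions *Bora* did not separate the genotypes (-0.03, adjusted p = 0.943), also without WT replicate 1 (0.06, adjusted p = 0.855). Opposite exons of *Dis3* and *Mzt1* cover 21.5% of the exon bases of *Bora*, and their part in its level was not tested.

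**Figure D5:**
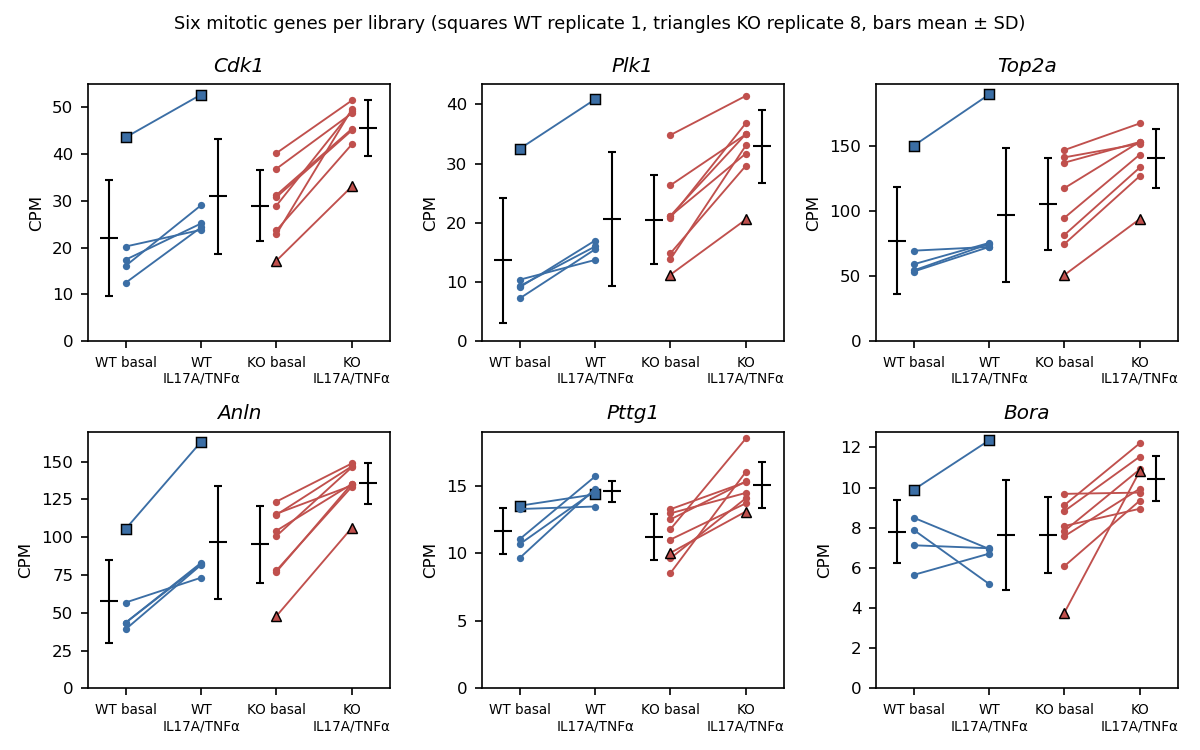
Levels (CPM, y axis, from 0) of *Cdk1*, *Plk1*, *Top2a*, *Anln*, *Pttg1* and *Bora* in each library of the 4 groups (x axis), with lines joining the libraries of 1 mouse, squares for WT replicate 1, triangles for KO replicate 8 and bars for mean ± SD. The first 4 genes have the same layout, with WT replicate 1 far above the other WT mice, whereas in the *Pttg1* panel the genotypes coincide and in the *Bora* panel 3 WT lines go down.

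The chromosomal passenger complex corrects wrong attachments of chromosomes to the spindle. Of its 4 genes 1 was called for the cytokine effect in WT (*Incenp*) and 3 in KO, with *Aurkb* the exception, and 4 and 4 with the block. *Incenp*, the scaffold, averaged 23.0 ± 7.95 CPM basal and 32.2 ± 8.60 CPM treated in WT mice, against 29.3 ± 6.93 and 41.0 ± 4.40 CPM in KO mice, a response of 0.49 in both (standard errors 0.19 and 0.15, edgeR adjusted p = 0.053 and 0.0135). *Aurkb*, the kinase, averaged 6.82 ± 3.38 CPM basal and 9.33 ± 4.71 CPM treated in WT mice, against 9.68 ± 3.40 and 13.3 ± 3.11 CPM in KO mice, with a response of 0.45 in both (adjusted p = 0.284 and 0.163). *Birc5* (survivin) averaged 7.77 ± 3.58 CPM basal and 11.2 ± 4.82 CPM treated in WT mice, against 10.6 ± 3.02 and 17 ± 3.33 CPM in KO mice. Its responses were 0.53 (adjusted p = 0.13) and 0.68 (adjusted p = 0.0108), and that of *Cdca8* (borealin) in KO was also 0.68 (adjusted p = 0.00808). Genotype differences with cytokines were 0.60 for *Birc5* and 0.59 for *Cdca8* (edgeR adjusted p = 0.207 and 0.19, but 0.0984 and 0.0919 with the mouse as a random block).

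The spindle checkpoint delays anaphase until all kinetochores are attached. Its 4 genes were not called for the cytokine effect in WT and all were called in KO, against 3 and 4 with the block. *Bub1*, a checkpoint kinase, had the highest response of the 49 genes in KO, 0.74 (standard error 0.26, edgeR adjusted p = 0.0307). Its KO levels went from 9.22 ± 3.39 to 15.4 ± 3.44 CPM, and all 8 KO mice were higher with cytokines. WT levels went from 8.10 ± 4.39 to 10.6 ± 6.43 CPM (response 0.40, adjusted p = 0.405), with 15.9, 5.53, 7.08, 6.06 and 5.96 CPM basal and 21.7, 9.81, 6.57, 9.49 and 5.65 CPM treated, so that 3 of 5 mice were higher. Under basal conditions *Bub1* had the third lowest genotype difference, 0.19 (adjusted p = 0.771). *Ttk*, the kinase at the head of the checkpoint, averaged 4.32 ± 2.36 CPM basal and 5.55 ± 3.39 CPM treated in WT mice, against 5.60 ± 1.72 and 8.25 ± 1.93 CPM in KO mice, responses of 0.36 (adjusted p = 0.425) and 0.56 (adjusted p = 0.0909). *Bub1b* and *Mad2l1*, parts of the inhibitor of the APC/C, had KO responses of 0.61 and 0.53 (edgeR adjusted p = 0.0321 and 0.0427).

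Of the 6 genes around the APC/C and chromatid separation, 2 were called for the cytokine effect in WT and 4 in KO (5 and 6 with the block). *Ube2c*, the ubiquitin-conjugating enzyme of the APC/C, had the highest level of the 49 genes per length of canonical transcript, 38.1 CPM per kb as the mean of the group means. It measured 44.7, 19.8, 23.4, 17.2 and 16.1 CPM in WT replicates 1 to 5 and 66.1, 30.3, 26.3, 33.4 and 30.6 CPM with cytokines, and in KO it ran from 21.6 (median 34.4) to 52.2 CPM and from 34.4 (median 54.7) to 59.3 CPM. Every mouse was higher with cytokines, and the response was 0.62 in WT (standard error 0.26, edgeR adjusted p = 0.0702) and 0.61 in KO (standard error 0.20, adjusted p = 0.0244). *Cdc20*, the activator of the APC/C at anaphase, averaged 18.4 ± 10.1 CPM basal and 26.2 ± 13.1 CPM treated in WT mice, against 24.6 ± 7.77 and 36.4 ± 5.70 CPM in KO mice (0.51, adjusted p = 0.187, and 0.56, adjusted p = 0.0581).

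*Pttg1* (securin), the inhibitor of separase, differed from the rest in its small spread. WT basal libraries had 13.5, 10.7, 9.66, 13.3 and 11.1 CPM and treated ones 14.4, 14.6, 14.8, 13.5 and 15.7 CPM, and KO libraries ran from 8.55 (median 11.4) to 13.3 CPM and from 13.1 (median 14.9) to 18.5 CPM. All 13 mice were higher with cytokines, and WT replicate 1 was within the range of the others in the treated group. The response was called in both genotypes, at 0.33 in WT (standard error 0.11, edgeR adjusted p = 0.0303) and 0.42 in KO (standard error 0.09, adjusted p = 0.000507), the lowest adjusted p of a member in KO. The genotype difference was -0.05 basal and 0.05 with cytokines (adjusted p = 0.826 and 0.901), the lowest of the 49 genes in both conditions, and 0.00 and 0.05 without WT replicate 1. *Espl1* (separase), the protease that cuts cohesin, had a response of 0.03 in WT (9.34 ± 3.98 to 9.53 ± 5.12 CPM, adjusted p = 0.951, and -0.08 without WT replicate 1) and 0.31 in KO (11.0 ± 3.16 to 13.6 ± 3.28 CPM, adjusted p = 0.32), and 3 of 5 WT and 7 of 8 KO mice were higher. *Sgo1* (shugoshin), which protects cohesin at the centromere, was called in KO (0.56, edgeR adjusted p = 0.0597).

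The 9 centromere and kinetochore genes had 0 calls for the cytokine effect in WT and 1 in KO (*Cenpa*, the centromeric histone, 0.45, edgeR adjusted p = 0.0859), and 6 and 8 with the block. The kinetochore binds microtubules through the NDC80 complex, made of the products of *Ndc80*, *Nuf2*, *Spc24* and *Spc25*. *Ndc80* went from 5.23 ± 3.09 to 7.73 ± 4.64 CPM in WT (0.57, standard error 0.35, adjusted p = 0.248) and from 8.25 ± 3.29 to 10.4 ± 2.88 CPM in KO (0.32, standard error 0.28, adjusted p = 0.43). *Nuf2* had the lowest response of the 49 genes in KO, 0.18 (6.85 ± 1.51 to 7.80 ± 1.56 CPM, adjusted p = 0.6), and was the 1 member not called in KO with the block. *Spc24* and *Spc25* had responses between 0.14 and 0.32 in both genotypes, and 52.5% of the exon bases of *Spc25* lie opposite exons of *Nostrin*. *Cenpe*, a kinesin that carries chromosomes to the spindle equator, averaged 20.3 ± 12 CPM basal and 24.7 ± 14 CPM treated in WT mice, against 26.5 ± 8.28 and 37.5 ± 4.68 CPM in KO mice (0.28, adjusted p = 0.535, and 0.50, adjusted p = 0.117). *Ska1*, which holds kinetochores on microtubules, was the lowest of the 49 genes per length (0.851 CPM per kb) and had the second highest genotype difference with cytokines, 0.66 (edgeR adjusted p = 0.337).

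Of the 8 spindle motors and microtubule proteins, 3 were called for the cytokine effect in WT (*Tpx2*, *Tacc3* and *Dlgap5*) and the same 3 in KO, against 6 and 8 with the block. *Tpx2*, which activates Aurora A and nucleates spindle microtubules, measured 51.4, 22.3, 28.5, 24.7 and 21.9 CPM in WT replicates 1 to 5 and 74.2, 40.5, 30.1, 35.2 and 34.5 CPM with cytokines. KO libraries ran from 29.6 (median 47.9) to 56.7 CPM and from 50.8 (median 65.1) to 70.3 CPM. Leaving WT replicate 1 aside, no WT library reached the lowest KO library of its condition. The response was 0.53 in WT (standard error 0.22, edgeR adjusted p = 0.0692) and 0.51 in KO (standard error 0.17, adjusted p = 0.0258). The basal genotype difference of 0.60 was called (standard error 0.20, adjusted p = 0.0569), and that with cytokines, 0.58, had the lowest adjusted p of the members, 0.149 (0.0636 with the mouse as a random block).

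*Kif11*, the motor that pushes the spindle poles apart, responded less in WT. It measured 40.1, 16.9, 18.6, 14.8 and 12 CPM in WT basal replicates 1 to 5 and 45.5, 16.9, 15, 15.6 and 17.4 CPM with cytokines, so that 3 of 5 mice were higher. KO libraries ran from 13.3 (median 25.2) to 34.1 CPM and from 24.3 (median 36.2) to 38.9 CPM, and 8 of 8 mice were higher. The response was 0.11 in WT (standard error 0.29, edgeR adjusted p = 0.82, and 0.534 with the block) and 0.45 in KO (standard error 0.23, adjusted p = 0.149, and 6.2e-05 with the block). The difference of the responses was not called (0.34, adjusted p = 0.865, and 0.168 with the block). *Dlgap5*, which stabilizes microtubules at the kinetochore, had the third highest response in WT, 0.64 (standard error 0.29, adjusted p = 0.0941), and *Tacc3*, a protein of spindle fibres, 0.58 (adjusted p = 0.0976). *Kif4*, *Kif2c*, *Hmmr* and *Nusap1* were not called in either genotype without the block (WT 0.17 to 0.47, KO 0.29 to 0.55).

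The genes of the central spindle and of cytokinesis, which separate the daughter cells, had 1 of 8 calls for the cytokine effect in WT (*Anln*) and 6 of 8 in KO, and 8 and 8 with the block. *Anln* (anillin), the scaffold of the contractile ring, measured 106, 43.5, 56.8, 39.1 and 43.4 CPM in WT replicates 1 to 5 and 163, 83.0, 73.2, 81.7 and 82.2 CPM with cytokines. KO libraries ran from 47.9 (median 103) to 124 CPM and from 106 (median 135) to 149 CPM. All 13 mice were higher with cytokines, and apart from WT replicate 1 every treated WT library was above every basal one. *Anln* had the highest response of the 49 genes in WT, 0.75 (standard error 0.24, edgeR adjusted p = 0.0176), and was also called in KO (0.51, standard error 0.19, adjusted p = 0.0398). Its basal genotype difference, 0.72 (standard error 0.22, adjusted p = 0.035), was the highest of the 49, while with cytokines it was 0.49 (adjusted p = 0.275).

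*Kif23*, a subunit of centralspindlin, had the second highest response in both genotypes, 0.71 in WT (9.90 ± 7.28 to 16.2 ± 10.4 CPM, edgeR adjusted p = 0.134) and 0.72 in KO (15 ± 5.02 to 24.8 ± 4.89 CPM, adjusted p = 0.0495). *Ect2*, the activator of RhoA at the division plane, averaged 16.9 ± 7.65 CPM basal and 21.0 ± 11.3 CPM treated in WT mice, against 22.5 ± 5.60 and 31.7 ± 4.62 CPM in KO mice (0.31, adjusted p = 0.393, and 0.49, adjusted p = 0.0649). Its genotype difference with cytokines, 0.59, was not called (edgeR adjusted p = 0.214) but was under 0.1 with the random block (0.0987). *Kif20a*, a kinesin of the midzone, averaged 13.6 ± 7.21 CPM basal and 19.3 ± 11.2 CPM treated in WT mice, against 19.4 ± 5.97 and 27.3 ± 5.82 CPM in KO mice and, with *Racgap1*, was 1 of the 2 genes of this group not called in KO (0.49, adjusted p = 0.121). Opposite exons of *Cdc23* and *Brd8* cover 61.5% of its exon bases. *Cep55*, a protein of abscission, had the third highest genotype difference with cytokines, 0.66 (edgeR adjusted p = 0.268).

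*Mki67*, the antigen of the Ki-67 antibody and a coat protein of mitotic chromosomes, and *Top2a* were not called for the cytokine effect in either genotype. *Mki67* measured 130.4, 47.8, 63.8, 49.7 and 44.5 CPM in WT basal replicates 1 to 5 and 148, 59.5, 62.0, 53.8 and 56.3 CPM with cytokines, a response of 0.18 (standard error 0.28, edgeR adjusted p = 0.692, and 0.165 with the block). In KO it ran from 49.1 (median 86.5) to 125 CPM and from 83.9 (median 108) to 132 CPM, a response of 0.28 (standard error 0.22, adjusted p = 0.377, and 0.0014 with the block). *Top2a* measured 150.3, 54.3, 69.6, 59.1 and 53.5 CPM in WT and 189.8, 74.9, 72.5, 75.5 and 72.4 CPM with cytokines, and all 13 mice were higher. Its KO levels were 106 ± 35.4 and 141 ± 22.7 CPM, and the response was 0.33 in WT (adjusted p = 0.44, and 0.00901 with the block) and 0.41 in KO (adjusted p = 0.194, and 2.98e-05 with the block). Without WT replicate 1 the genotype differences were 0.78 basal and 0.91 with cytokines for *Mki67*, and 0.83 and 0.94 for *Top2a*. Since that mouse was singled out by values of these genes, these differences only describe the other mice.

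Genes next to mitosis in the cell cycle were counted in the same way. Of all genes tested, 18.8% were called higher with cytokines in WT and 17.7% in KO (21.2% and 20.1% with the block). Called lower were 18% in WT and 18.1% in KO. Of 29 DNA replication genes 5 were called higher with cytokines in WT and 15 in KO (12 and 22 with the block), and none lower, apart from 1 lower in WT with the block. The largest rise was that of *Cdt1*, which loads the replicative helicase, at 0.77 in WT and 0.89 in KO (edgeR adjusted p = 0.00144 and 1.31e-05). Of 25 further kinetochore genes 3 and 8 were called higher, none lower, with *Cenpi* highest in WT (0.54, adjusted p = 0.078) and *Cenpq* in KO (0.73, adjusted p = 0.0116). Without the block, the WT shares of the replication genes and of these kinetochore genes were not above the background. Of 13 cohesin and condensin genes 1 was higher (*Rad21*, 0.20 and 0.13) and 1 lower (*Stag2*, -0.33 and -0.23) in each genotype. Of 14 core subunits of the APC/C 3 were called higher (largest *Anapc11*, 0.41 in WT and 0.30 in KO) and 4 lower (largest *Cdc23*, -0.43 and -0.21) in each genotype. Among 20 regulators of G2, mitosis and E2F targets 3 were higher and 3 lower in WT, and 3 higher and 4 lower in KO, with *E2f7* at 0.50 and 0.82 and *E2f2* at -1.5 and -1.18. Of 11 CDK inhibitors and brakes 3 were higher and 1 lower in each genotype, and *Wee1*, the kinase that holds CDK1 inactive, rose most (0.73 and 0.54), while the largest called fall was that of *Cdkn2c* in WT (-0.37) and *Cdkn1a* in KO (-0.19). Of 9 CDC25 and G1 cyclin genes 1 rose in WT (*Cdc25a*, 0.23) and 1 in KO (*Cdc25b*, 0.30), and 1 fell in WT and 2 in KO, with *Ccnd3* lowest in both (-0.69 and -0.52). The melanocyte marker *Tyr* fell in both genotypes (-0.88 and -1.17), with 3 of 6 melanocyte markers called lower in WT and 5 in KO, and the immune marker *Cd68* was called higher (0.75 and 0.48).

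Between genotypes, with all mice kept, 6.06% of all genes were called lower in KO under basal conditions and 1.62% with cytokines, beside the shares called higher given above. In KO 1 of the 29 replication genes was higher under basal conditions (*Rrm2*, 0.37, edgeR adjusted p = 0.0951) and 1 with cytokines (*Cdc6*, 0.48, adjusted p = 0.0934), against 14 and 21 without WT replicate 1. In the fit without that mouse 10.4% and 6.27% of all genes were called higher. Since that mouse was singled out by values of the mitotic genes, 14 and 21 only describe the other mice. Of the 9 CDC25 and G1 cyclin genes 3 were higher in KO under basal conditions, led by *Cdc25a* (0.22, edgeR adjusted p = 0.0357), and 2 with cytokines, led by *Ccnd1*, a cyclin of G1 (0.38, adjusted p = 0.033). Of the 11 CDK inhibitors and brakes 2 were higher under basal conditions, led by *Cdkn2a* (0.96, adjusted p = 0.0649). Single basal calls were those of *Anapc11* (0.26), *Rad21* (0.18), *Stag2* (-0.18) and *E2f5* (-0.50), with edgeR adjusted p from 0.0143 to 0.0579. With cytokines *E2f7*, a repressor of E2F targets, was higher in KO (0.74, edgeR adjusted p = 0.0564). Of 13 differentiation markers 6 were lower in KO under basal conditions and 8 with cytokines, led by *Dsg1a* (-0.82, adjusted p = 0.00362) and *Krt1* (-1.42, adjusted p = 0.000146), and none was higher. With cytokines 10 of these 13 fell in each genotype, *Krt10* most (-5.00 in WT and -5.64 in KO), while 1 was called higher in WT and 2 in KO, *Cnfn* most. Of the 6 melanocyte markers 4 were lower in KO with cytokines and 0 under basal conditions.

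Levels of different members can be compared only per length, and the order depends on the length used. The canonical transcript of *Ube2c* has 967 bases, while all its annotated exons have 3241, and counts per gene can come from any exon. As CPM per kb of the canonical transcript, averaged over the 4 group means, the 49 genes spanned from 0.851 (*Ska1*) to 38.1 (*Ube2c*). After *Ube2c* came *Top2a* (20.0), *Anln* (17.4), *Pttg1* (17.2), *Cenpa* (17) and *Cdca8* (16.7), whose neighbours in this order differed by less than the spread between mice, and before *Ska1* came *Espl1* (1.47), *Knl1* (1.65) and *Ttk* (1.67). The within-group spread between mice was 0.18 (log2) for *Pttg1*, 0.33 for *Incenp* and 0.35 for *Bora*, the smallest values, and 0.61 for *Ndc80* and 0.60 for *Kif23*, the largest.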

How the data were processed

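Messenger RNA of primary keratinocytes, pooled from 2 wells per animal, was sequenced from strand-specific libraries. Per the submitters' processing notes, reads were aligned to mm39 with STAR 2.7.10b and the authors counted them per gene with featureCounts 2.0.6. The deposited counts were not normalized, and whether counting used the strand was not stated. A second deposited table held log2 values of normalized counts with a pseudocount of 1. The tables differed by more than 0.01 (log2) for 50 symbols, none of them a member.

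Counts with a mean normalized count over 10 were kept (16893 genes), TMM-normalized and fitted over all 4 groups with edgeR 4.0.16 (quasi-likelihood, R 4.3.3), with a prior count of 1 for the levels. p-values were adjusted by Benjamini-Hochberg over all genes tested, and the code was tested on simulated data. Total counts ran from 42072745 to 78102858, and no pair of libraries agreed within sampling noise (lowest chi-square per degree of freedom within a group 7.44). Basal and treated libraries of a genotype with the same number in their titles were taken to come from the same animal. Their deviations over all genes correlated at 0.000509 to 0.254 (median 0.106). Fits with the mouse as a block (edgeR, or limma-voom 3.58.1 for the genotype effects) rest on this pairing and are given where they change a call. The alternatives were DESeq2 1.42.0, its size factors, total counts, no filter, limma on the deposited log2 values, only the groups compared, the mouse block, and leaving out each mouse. The block without WT replicate 1, and leaving out WT replicate 1 with KO replicate 8, were chosen after seeing the data.

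The members and all gene lists were chosen with earlier results of these data known. Values in every group were given for 2 members of each function, chosen by name. Further members came from the 3 highest and lowest of each contrast and from those whose call differed from most of their function. Some of these were given by log2 fold change only. From the cell-cycle and differentiation lists the genes with the largest called rise and fall were named, and other marker lists were given by their sums and single genes. Promoters were read from GRCm39 with GENCODE canonical transcript starts.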

Additional observations from a re-analysis of the deposited data

Results flagged for a closer look

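In groups of 5 or 8 libraries, the gap of the highest or lowest library to its neighbour was compared with Dixon's 95% critical value, which chance exceeds in about 1 in 20 groups. The library of WT replicate 1 stood apart from the other WT libraries for 37 of the 49 genes under basal conditions and for 44 with cytokines, and the library of KO replicate 8 stood apart for 4 genes with cytokines. Since the genes move together, these counts are not independent of each other. The share of all genes tested for which these libraries stood apart was not counted.

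Under basal conditions the summed level in WT replicate 1 was 1605 CPM. The genes given in every group that stood apart in that library were *Cdk1* (43.6 CPM), *Ccnb1* (51.1), *Plk1* (32.5), *Aurka* (25.5), *Birc5* (14), *Bub1* (15.9), *Ttk* (8.52), *Cdc20* (36.0), *Ube2c* (44.7), *Cenpe* (41.1), *Ndc80* (10.7), *Kif11* (40.1), *Tpx2* (51.4), *Ect2* (30.5), *Kif20a* (26.2), *Mki67* (130.4) and *Top2a* (150.3).

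With cytokines the summed level in WT replicate 1 was 2097 CPM. All 18 of these genes stood apart in that library: *Cdk1* (52.8 CPM), *Ccnb1* (68.1), *Plk1* (40.9), *Aurka* (36.2), *Aurkb* (17.7), *Birc5* (19.7), *Bub1* (21.7), *Ttk* (11.5), *Cdc20* (49.6), *Ube2c* (66.1), *Cenpe* (49.7), *Ndc80* (15.9), *Kif11* (45.5), *Tpx2* (74.2), *Ect2* (41.1), *Kif20a* (39.2), *Mki67* (148) and *Top2a* (189.8). In KO cells with cytokines, *Tpx2* was apart in replicate 8, at 50.8 CPM. The causes were not tested.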

How the results depend on the processing

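When single mice were left out, the number of genes called for the cytokine effect ran from 1 to 19 in WT and 13 to 42 in KO (with the fold condition 1 to 8 and 5 to 15), and for the genotype effect from 0 to 46 basal and 0 to 48 with cytokines (0 to 43 and 0 to 47), and the highest count without the fold condition was in each case that without WT replicate 1. The share of all genes called higher ran from 15.6% to 19.2% in WT and from 15.5% to 18.6% in KO for cytokines. For genotype it ran from 5.51% to 10.4% basal and from 0.266% to 6.27% with cytokines. The medians of the genotype effect ran from 0.31 to 0.80 basal and from 0.42 to 0.92 with cytokines. The paired fit, with the mouse as replicate block, called 40 genes in WT and 48 in KO (8 and 17 with the fold condition), and 4 (4) for the genotype effect with cytokines. With the block 21.2%, 20.1% and 1.63% of all genes were called higher, shares that here and below are without the fold condition. The block without WT replicate 1 called 33 and 48 (9 and 17), against 20% of all genes in both. Without both WT replicate 1 and KO replicate 8, 26 and 44 genes were called for cytokines (8 in WT with the fold condition), against 19.4% and 17.8%. For genotype 47 and 48 were called without both mice (47 and 47), against 11.6% and 7.65%, with a basal median of 0.88. Only the groups compared gave 2 (1) in WT, 41 in KO and 5 (2) for genotype with cytokines, against 16.9%, 18.5% and 2.49%. Limma on the deposited log2 values gave 17 in KO with the fold condition and 1 (1) for genotype with cytokines, the latter against 1.43%. Total counts gave 1 for basal genotype with the fold condition. The causes were not tested. No member was called for the interaction in any of these settings.

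Among the cytokine and genotype effects, signs changed for 3 genes near 0, none of them called, and the interaction changed sign in 113 combinations of gene and setting, none called. The response of *Bora* in WT ran from -0.187 (without WT replicate 1) to 0.0833 (without WT replicate 5), and was 0.0339 without WT replicate 3. Its basal genotype effect ran from -0.129 (without WT replicate 2) to 0.064 (without KO replicate 8), was above 0 also without WT replicate 1 (0.0621) and KO replicate 7 (0.00746), and was 0.162 without both WT replicate 1 and KO replicate 8. The response of *Espl1* in WT ran from -0.0834 (without WT replicate 1) to 0.0700 (without WT replicate 2), and was -0.0137 with limma, -0.00922 with the mouse as a block, -0.0765 with the block and without WT replicate 1, and -0.0837 without both mice. The basal genotype effect of *Pttg1* ran from -0.113 (without WT replicate 3) to 0.00303 (without WT replicate 1), and was 0.000334 without WT replicate 4 and 0.0243 without both mice.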
